A study of Mus musculus with 2 samples.

Results

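The miRNAs described here are the 5p arms of the miR-23/27/24 hairpins: miR-23a-5p, miR-27a-5p and miR-24-2-5p from the cluster on mouse chromosome 8, and miR-23b-5p, miR-27b-5p and miR-24-1-5p from the cluster on chromosome 13. They were chosen by name and are 6 of the 1915 mature miRNA names in the count table. The 3p arms of the same hairpins serve as reference. Small RNA was sequenced from unstimulated bone marrow-derived macrophages (BMDMs) of wild type mice, strain background C57BL/6, 8 weeks of age. BMDMs are bone marrow progenitors differentiated in culture with L-cell conditioned medium, a source of macrophage colony-stimulating factor. The single condition is represented by 2 libraries, replicates 1 and 2, with 7322969 and 8094314 miRNA counts, in which 891 and 898 names were detected. The labels call them biological replicates but do not say whether they came from separate animals or cultures, so the spread between them may be in part technical.

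A miRNA hairpin is cut into a short duplex of its 5p and 3p arms. In most duplexes Argonaute keeps the guide arm, and the other arm, the passenger, is degraded, so that passenger arms are usually rare. The miR-23, miR-27 and miR-24 hairpins occur in a pair of paralogous clusters, each transcribed as a common precursor, and in all of them the 3p arm is known as the guide. The guide of miR-24 has the same sequence in both clusters and does not show its locus of origin, while its passenger arms differ and do. The miR-23a cluster is known as a target of the myeloid transcription factor PU.1, and miR-27 is known to regulate genes of lipid metabolism, among them Pparg.

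The mature sequences are shown because they decide which counts can be assigned to a locus. They come from RefSeq on GRCm38.p6, which matched 6 of 6 5p arms and 4 of 5 3p arms (miR-23b-3p is named only), and capitals mark the seed, bases 2 to 8. Names are given with the mouse prefix mmu here and without it elsewhere. The first 6 are the 5p arms, in pairs of chromosome 8 and chromosome 13 copies, followed by the 3p arms.
mmu-miR-23a-5p: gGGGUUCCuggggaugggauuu
mmu-miR-23b-5p: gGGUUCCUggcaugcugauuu
mmu-miR-27a-5p: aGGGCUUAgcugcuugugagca
mmu-miR-27b-5p: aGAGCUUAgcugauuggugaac
mmu-miR-24-2-5p: gUGCCUACugagcugaaacagu
mmu-miR-24-1-5p: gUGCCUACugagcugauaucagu
mmu-miR-23a-3p: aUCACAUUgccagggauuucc
mmu-miR-27a-3p: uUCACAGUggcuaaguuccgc
mmu-miR-27b-3p: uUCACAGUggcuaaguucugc
mmu-miR-24-3p: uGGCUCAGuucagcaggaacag

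By seed, miR-24-1-5p and miR-24-2-5p form a group of their own, and so do miR-27a-3p and miR-27b-3p. The miR-24 5p arms share their first 16 bases and lie 2 single-base edits apart, with all differences after base 16. The miR-27 5p arms have different seeds (G3A, counted from the 5′ end, chromosome 8 copy first) and lie 5 edits apart. The miR-23 5p arms also lie 5 edits apart. Their longest common run, of 10 bases, begins at base 2 of miR-23a-5p and at base 1 of miR-23b-5p, so that their seeds are offset. The miR-27 3p arms, by contrast, differ only by C19U. A read cut short before that base could come from either copy, and how such reads were counted is not given in the sources used here. The 5p arms of miR-23 and miR-27 thus separate the loci better than the 3p arms of miR-27, while the miR-24 5p arms can be told apart only by reads that reach past base 16.

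The chromosome 8 cluster spans 404 bases on the plus strand, with Mir23a at chr8:84208518-84208592, Mir27a at chr8:84208672-84208758 and Mir24-2 at chr8:84208815-84208921 (GRCm38). In the GENCODE annotation it lies in no host gene, and a long noncoding RNA gene, Gm26532, begins within the last 2 bases of Mir24-2. The chromosome 13 cluster spans 792 bases on the plus strand, with Mir23b at chr13:63300484-63300557, Mir27b at chr13:63300712-63300784 and Mir24-1 at chr13:63301208-63301275. It lies in the protein-coding gene 2010111I01Rik on the same strand, where Mir23b is intronic and Mir27b and Mir24-1 fall within untranslated exons of transcripts annotated for nonsense-mediated decay. Fancc overlaps the cluster on the minus strand.

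The label was checked against cell type markers, given in RpM, the counts per 1000000 miRNA counts of a library. The 6 myeloid markers summed to 329382 and 294854 RpM in replicates 1 and 2, most of it miR-21a-5p (279747 and 257096 RpM), and none was at 0. The paper also describes miR-21 in endothelial and smooth muscle cells, so this sum is not particular to myeloid cells. Apart from it, miR-142a-5p stood at 37031 and 29252 RpM and miR-223-3p at 6053 and 4485 RpM. The least abundant myeloid marker, miR-155-5p, stood at 99.0 and 44.4 RpM. The 4 fibroblast and smooth muscle markers summed to 232 and 153 RpM, most of it miR-143-3p (187 and 117 RpM). The 2 epithelial markers summed to 74.7 and 53.7 RpM, most of it miR-141-3p. The 3p arms of the miR-200 family, 5 names chosen after the values were seen, summed to 171 and 185 RpM, with miR-200b-3p at 67.7 and 102 RpM. Lymphoid miR-150-5p stood at 27.6 and 10.9 RpM and endothelial miR-126a-3p at 14.1 and 10.9 RpM. The erythroid markers summed to 1.23 and 0.988 RpM, the neural ones to 1.64 and 1.36 RpM and the muscle ones to 0 and 0.741 RpM, while miR-122-5p of liver was at 0 in both libraries, which allows up to 0.410 and 0.371 RpM (3 counts). The fibroblast sum was above 5 of the 6 5p arms in replicate 1 and above 4 in replicate 2, and the sum of the 2 epithelial markers was above 3 of them in both libraries. With library totals all myeloid, fibroblast, lymphoid and endothelial markers were higher in replicate 1. Of these miR-21a-5p, at a log2 ratio of -0.12, turned to 0.0077 with TMM and 0.023 with DESeq2 size factors. The latter were 1 for both libraries and left the counts as they stand. Both settings were tried for the markers after their values were seen. For the epithelial markers the sum turned direction with the other 3p arms of the miR-200 family. Their part in the levels of the arms was not tested.

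The 5p arms ranged from rare to abundant, and miR-24-2-5p alone held most of their counts. It had 15691 counts in replicate 1 and 16790 in replicate 2, or 2143 RpM (95% Wilson interval 2109 to 2176) and 2074 RpM (2043 to 2106). Its mean of 2109 ± 48.4 RpM (SD, n = 2) ranked 48 among all names, between miR-423-3p at 2136 ± 195 RpM and miR-93-5p at 2033 ± 28.5 RpM. It did not differ from miR-423-3p beyond the spread. miR-24-2-5p made up 85.1% and 86.5% of the counts of all 6 arms, and its level was below that of each 3p arm of these hairpins but above that of every other 5p arm. All intervals given cover counting error alone, since the libraries carry no molecular identifiers and PCR copies of a molecule are counted separately.

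The miR-27 passenger arms came next. miR-27b-5p had 1394 and 1535 counts, or 190.4 and 189.6 RpM, with a mean of 190.0 ± 0.510 RpM (SD, n = 2) and rank 122. miR-27a-5p had 998 and 875 counts, or 136 and 108 RpM, with a mean of 122 ± 19.9 RpM (SD, n = 2) and rank 144. miR-27b-5p was the higher in both libraries, by more than the spread of either arm.

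miR-24-1-5p, the chromosome 13 counterpart of the most abundant arm, had 234 and 160 counts, or 32.0 and 19.8 RpM, with a mean of 25.9 ± 8.62 RpM (SD, n = 2) and rank 239. The miR-23 passenger arms were the rarest. miR-23a-5p had 70 and 22 counts, 9.56 RpM (95% interval 7.57 to 12.1) and 2.72 RpM (1.79 to 4.12), and miR-23b-5p had 42 and 24 counts, 5.74 RpM (4.24 to 7.75) and 2.97 RpM (1.99 to 4.41). Their means of 6.14 ± 4.84 and 4.35 ± 1.96 RpM (SD, n = 2), at ranks 331 and 354, differed by less than the spread, and their order was not the same in both libraries. The names next to miR-23b-5p were miR-29b-2-5p at 4.53 RpM and miR-297a-3p at 4.28 RpM, whose counts are also listed under other names. All other neighbours in the order of the 6 arms differed by more than the SD of either. No other name in the table held the same counts as any of the 6 arms.

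**Figure D1:**
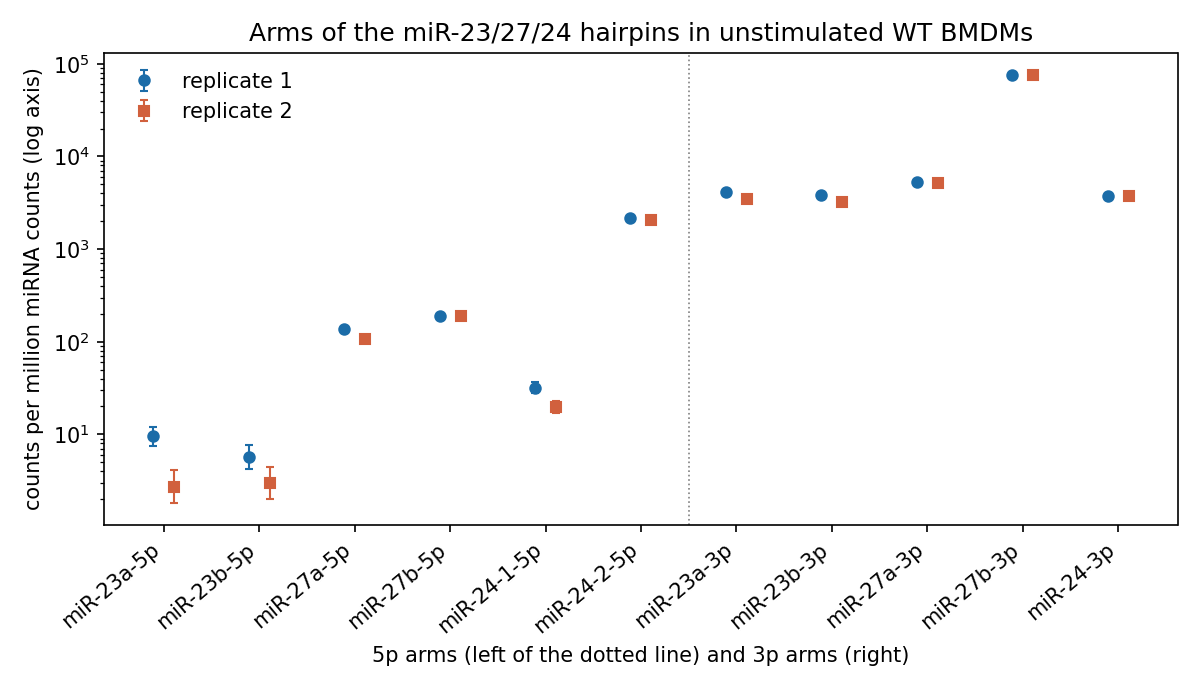
RpM, counts per 1000000 miRNA counts (log axis), of the 5p arms and 3p arms of the miR-23/27/24 hairpins in replicates 1 and 2, with 95% Wilson intervals that cover counting error only. miR-24-2-5p, at 2143 and 2074 RpM, lies close to the 3p arms of miR-23a, miR-23b and miR-24, while the other 5p arms lie between 2.72 and 190.4 RpM.

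Whether both clusters had equal output was asked of each pair of passenger arms, and the answer differed between the hairpins. For miR-24 the chromosome 8 copy was far in excess: miR-24-2-5p exceeded miR-24-1-5p by 67.1-fold and 104.9-fold in the libraries, on average 86.0-fold ± 26.8 (SD, n = 2). Expressed as chromosome 13 over chromosome 8, these are ratios of 0.0149 (exact 95% interval 0.0131 to 0.0170) and 0.00953 (0.00810 to 0.0111). The direction was shared by both libraries, although their intervals did not overlap.

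For miR-27 the chromosome 13 copy was moderately in excess. The ratio of miR-27b-5p to miR-27a-5p was 1.40 (exact 95% interval 1.29 to 1.52) in replicate 1 and 1.75 (1.61 to 1.91) in replicate 2, with a mean of 1.58 ± 0.253 (SD, n = 2). Both intervals lay above 1. For miR-23 no direction was shared. The ratio of miR-23b-5p to miR-23a-5p was 0.600 (0.399 to 0.892) in replicate 1 and 1.09 (0.586 to 2.04) in replicate 2, with a mean of 0.845 ± 0.347 (SD, n = 2), so that the difference from 1 rested on replicate 1 and was within the spread between libraries. These intervals compare counts within a library. An exact permutation test over 2 libraries cannot go below p = 0.5, so no p over libraries is given.

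Summed over the arms, the chromosome 8 cluster held 2289 and 2185 RpM and the chromosome 13 cluster 228 and 212 RpM. The ratio of chromosome 13 to chromosome 8 was 0.0996 and 0.0972, so that the chromosome 8 sum was higher on average 10.2-fold ± 0.179 (SD, n = 2). miR-24-2-5p made up 93.6% and 94.9% of the chromosome 8 sum, and miR-27b-5p 83.5% and 89.3% of the chromosome 13 sum. Without the miR-27 arms the mean ratio was 0.0142. Without the miR-24 arms, an alternative chosen after the values were seen, the direction turned: the remaining chromosome 13 arms exceeded those of chromosome 8 by 1.34-fold (1.24 to 1.46) and 1.74-fold (1.60 to 1.89). The passenger arms therefore gave no single ratio for the output of the clusters.

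Within the chromosome 8 cluster, miR-24-2-5p exceeded miR-27a-5p 15.7-fold and 19.2-fold, and miR-27a-5p exceeded miR-23a-5p 14.3-fold and 39.8-fold. Within the chromosome 13 cluster the order was another. miR-27b-5p made up most of the counts there, and miR-24-1-5p only 14.0% and 9.31%. The ratio of the miR-24 arm to the miR-27 arm was 17.5 ± 2.45 on chromosome 8 and 0.136 ± 0.0450 on chromosome 13 (SD, n = 2). The miR-23 arm was the smallest in both clusters and in both libraries. The widest gap was on chromosome 8, where miR-24-2-5p exceeded miR-23a-5p by 224-fold and 763-fold. Precursor output, arm retention and capture during library preparation cannot be told apart in these counts.

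**Figure D2:**
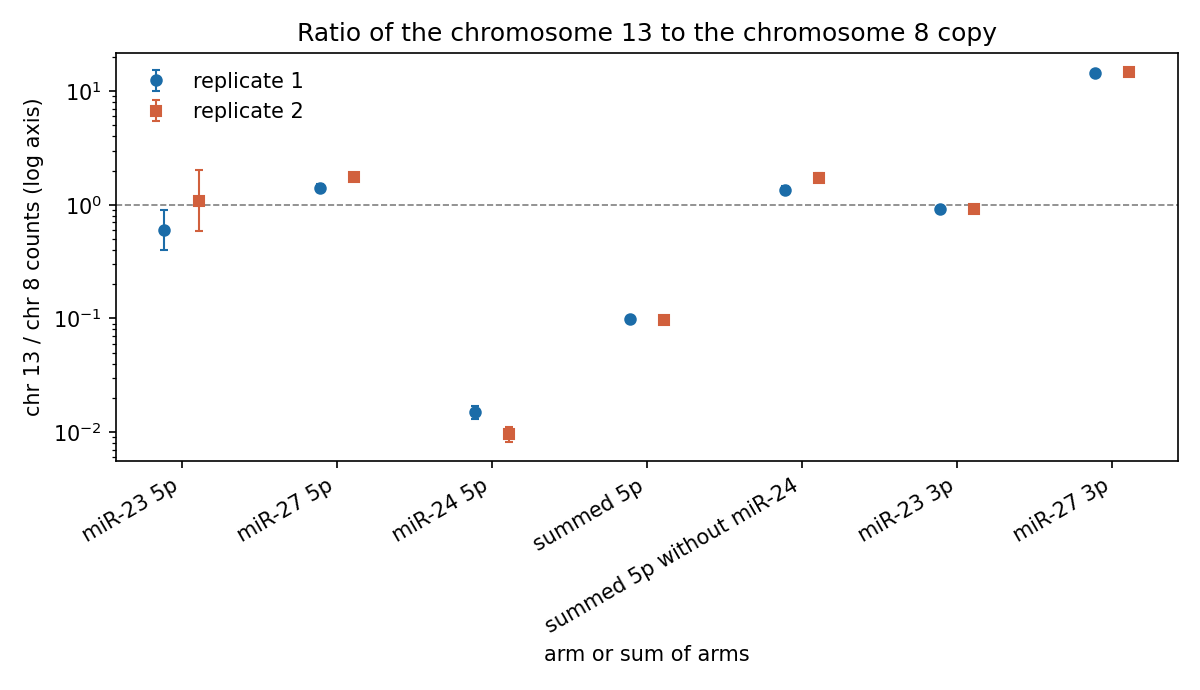
Counts of the chromosome 13 copy divided by those of the chromosome 8 copy (log axis) for each pair of arms and for their sums, in replicates 1 and 2, with exact 95% intervals and a dashed line at 1. The 5p ratios run from 0.00953 for miR-24 to 1.75 for miR-27, and the sum of the 5p arms changes sides of the line when miR-24 is left out.

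The 3p arms of the same hairpins gave other copy ratios than the 5p arms for miR-27. miR-27b-3p had 560597 and 618225 counts and miR-27a-3p 39092 and 41854, ratios of 14.3 (14.2 to 14.5) and 14.8 (14.6 to 14.9). Divided by the ratio of the 5p arms, this gave 10.3 (95% interval of the odds ratio 9.46 to 11.1) in replicate 1 and 8.42 (7.74 to 9.15) in replicate 2, on average 9.34 ± 1.31 (SD, n = 2). The excess of the chromosome 13 copy was therefore several times larger in the guide than in the passenger arms of miR-27, in both libraries. For miR-23, the 3p ratio of 0.915 and 0.921 divided by the 5p ratio was 1.53 (1.04 to 2.24) in replicate 1 and 0.844 (0.473 to 1.51) in replicate 2. The direction thus differed between the libraries, at 22 to 70 counts per 5p arm. For miR-24 no such comparison can be made, since miR-24-3p, at 27429 and 30245 counts, has the same sequence at both loci and its counts cannot be assigned to either.

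Arm use per hairpin is given as the 5p share, the 5p counts as a percent of 5p and 3p counts. For miR-24, with both 5p arms summed, it was 36.7% (95% Wilson interval 36.3 to 37.2) in replicate 1 and 35.9% (35.5 to 36.3) in replicate 2, on average 36.3% ± 0.578 (SD, n = 2). If every count of miR-24-3p came from Mir24-2, the 5p share of that hairpin would be 36.4% and 35.7%. These are lower limits only if every count of miR-24-2-5p came from Mir24-2: any guide made by Mir24-1 would raise the share at Mir24-2, while reads of Mir24-1 counted as miR-24-2-5p would lower it. The passenger arm of the chromosome 8 copy was thus within a factor of 2 of the total guide count.

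The other hairpins used their 3p arm almost alone. The 5p share of miR-27a was 2.49% (2.34 to 2.65) and 2.05% (1.92 to 2.19), on average 2.27% ± 0.312 (SD, n = 2). That of miR-27b was 0.248% in each library, with intervals of 0.235 to 0.261 and 0.236 to 0.260. The 5p share of the chromosome 8 copy was the higher in both libraries, with no overlap of the intervals. For miR-23a the share was 0.230% (0.182 to 0.290) and 0.0783% (0.0517 to 0.118), and for miR-23b 0.151% (0.112 to 0.204) and 0.0927% (0.0623 to 0.138). The miR-23 copies did not differ beyond their spread. Summing the copies, which cancels any exchange of reads between them, gave 0.397% and 0.364% for miR-27 and 0.192% and 0.0852% for miR-23. The summed values keep miR-27 and miR-23 far below miR-24, but the contrast of miR-27a with miR-27b rests on counts that exchange could move. The same holds for the 3p ratio of miR-23 and the separate shares of miR-23a and miR-23b, since the Mir23b hairpin contains a run of 18 of the 21 bases of miR-23a-3p, and for the separate counts of the miR-24 5p arms. The part of exchange was not tested.

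To place these values, the share of the less abundant arm was computed for the 175 hairpins with both arms named and at least 100 counts in each library. Its median was 2.35%, with quartiles of 0.432% and 13.5%. miR-24 ranked 10 from the top, next to miR-152 at 40.5% above and miR-467a at 36.3% below, whose arms hold the same counts as other names and may share reads with them. miR-27a ranked 89, close to the median, between let-7e at 2.35% and miR-879 at 2.20%. miR-27b, miR-23a and miR-23b ranked 144, 148 and 151, all below the lower quartile. Without the 13 hairpins with an arm whose counts, at least 10 in each library, equal those of another name, an alternative chosen after the values were seen, miR-24 ranked 9 and miR-27a 81 of 162. Among the 52 hairpins with a mean of at least 10000 counts, where the median was 0.948%, miR-24 ranked 1, ahead of miR-423 at 35.6% and miR-151 at 33.6%, the latter named after its value was seen. The gap to miR-423 was smaller than the spread of that hairpin, whose 5p share was 32.4% and 38.9%. In the same set miR-27a ranked 16 and miR-27b, miR-23a and miR-23b ranked 39, 42 and 43.

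**Figure D3:**
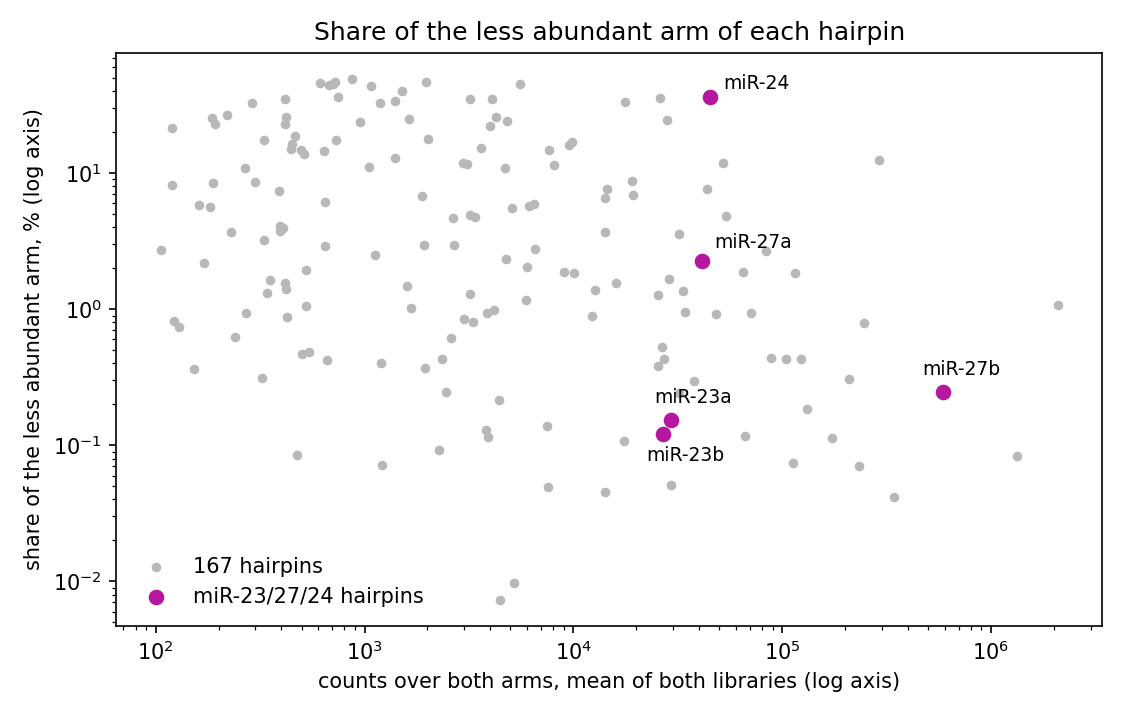
Share of the less abundant arm in percent (log axis) against the mean count over both arms (log axis) for 167 hairpins, each point the mean of both libraries; 8 further hairpins with a share of 0 cannot be drawn on a log axis. miR-24 lies at 36.3%, miR-27a at 2.27%, miR-27b at 0.248%, miR-23a at 0.154% and miR-23b at 0.122%.

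The libraries are replicates of a single condition, and a test between them compares these libraries, not conditions. By Fisher's exact test (two-sided) against the rest of the library, with Benjamini-Hochberg adjustment over the 588 names with at least 10 counts summed, 5 of 6 5p arms differed at an adjusted p under 0.05, all lower in replicate 2. Over all names 44.2% differed, and 30.4% differed and were lower in replicate 2. Like the intervals, these exact tests cover counting error alone, so a call does not set a difference apart from the spread between replicate libraries. As a median, the log2 ratio of replicate 2 over replicate 1 came to -0.16 for all names and -0.51 for the 6 arms. The DESeq2 size factors were 1 for both libraries, so this setting compared the counts as they stand, without adjustment for library totals. With TMM scaling and with these size factors, which moved the median of all names to -0.03 and -0.02, 3 of the arms were called lower. In both settings miR-27b-5p and miR-24-2-5p turned to higher and were called so. miR-23b-5p stayed lower, at -0.82 and -0.81 against -0.95, but was no longer called. Of all calls, 68.8% were lower in replicate 2 when library totals were used, against 52.9% under TMM and 50.6% under DESeq2.

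Among the arms, miR-23a-5p differed most, with a log2 ratio of -1.81 (Fisher's exact test, adjusted p = 1.12e-07). miR-23b-5p had a log2 ratio of -0.95 (Fisher's exact test, adjusted p = 0.0230) and miR-24-1-5p one of -0.69 (adjusted p = 8.98e-06). These are the 3 arms with the fewest counts. miR-27a-5p had a log2 ratio of -0.33 (Fisher's exact test, adjusted p = 2.14e-06). For miR-24-2-5p it was -0.05 with library totals (Fisher's exact test, adjusted p = 0.00919) and 0.083 and 0.098 with TMM and DESeq2. For miR-27b-5p it was -0.01 with library totals (Fisher's exact test, adjusted p = 0.999) and 0.12 and 0.14 with TMM and DESeq2. For both of these arms the sign depended on the scaling. Among low counts, 110 names had at least 10 counts in each library and a mean count of 20 to 100. Of these, 16 were at least 2-fold lower in replicate 2 and 1 at least 2-fold higher. In this set 2 names, miR-23a-5p included, had a log2 ratio of -1.81 or less. Names that fell below 10 counts in a library are left out, so strongly changed names may be undercounted.

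**Figure D4:**
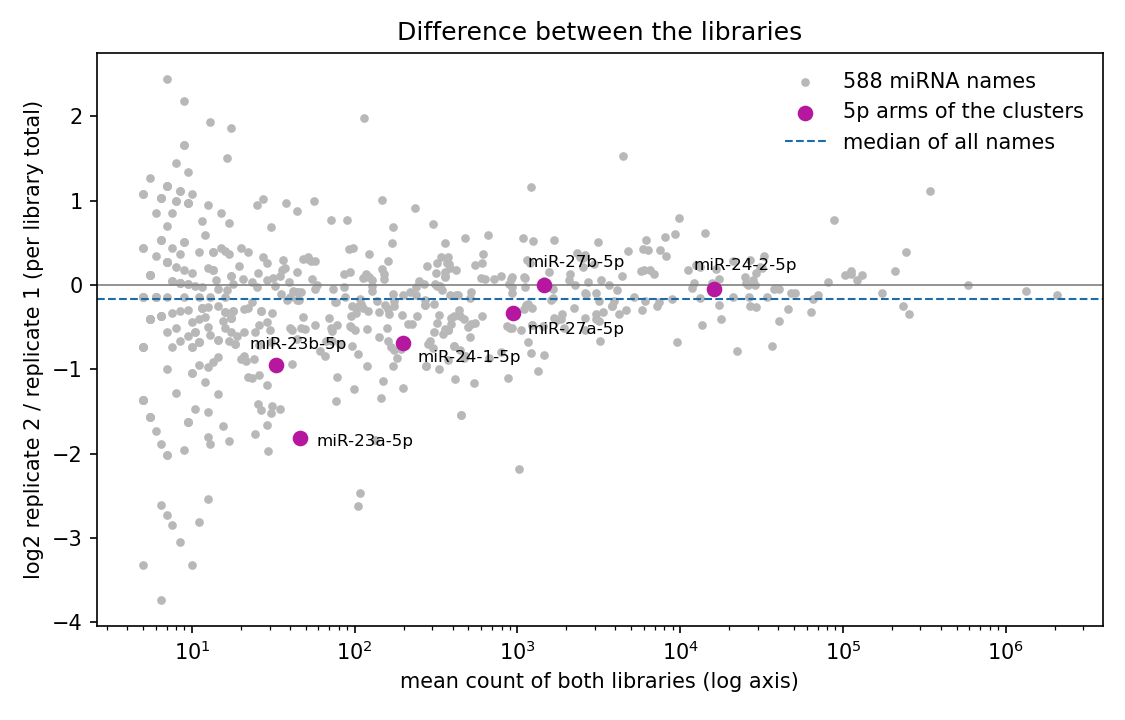
Log2 ratio of replicate 2 to replicate 1, per library total, against the mean count (log axis) for 588 miRNA names; the dashed line marks the median of -0.16. With library totals the 6 arms lie between -1.81 and -0.01, and miR-27b-5p and miR-24-2-5p turn to higher with TMM scaling or with the DESeq2 size factors, which were 1 for both libraries.

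The arms of each hairpin were also compared between the libraries, which needs no scaling of library totals but again covers counting error alone. By Fisher's exact test of arm by library, adjusted over the 175 hairpins, 3 of the 5 miR-23/27/24 hairpins were called, with 37.7% called over all hairpins. The 5p share was lower in replicate 2 for miR-23a (Fisher's exact test, adjusted p = 1.61e-05), miR-27a (adjusted p = 0.000112) and miR-24 (adjusted p = 0.0293). It was not called for miR-23b (Fisher's exact test, adjusted p = 0.147) or miR-27b (adjusted p = 1). Over all called hairpins the 5p share was higher in replicate 2 in 41 and lower in 25. For miR-24 the shares were 36.7% and 35.9%, a gap small beside its distance from the miR-23 and miR-27 hairpins. For miR-23a the share in replicate 1 was well above that in replicate 2.

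The split of the miR-24 passenger arms was compared with other miRNAs that have 2 loci, locus-numbered arms on one side of the hairpin and a shared arm on the other. The table names 27 such pairs, of which 16 had at least 20 counts in each library. In 12 of the 16, 1 arm held more than 90% of the counts in both libraries, and the median share of the larger arm was 98.0%. miR-24-2-5p held 98.5% and 99.1% of the miR-24 pair, on average 98.8%, and 6 pairs were more uneven by share. In 5 of these the smaller arm had 0 counts in both libraries. With 3 counts as the least for the smaller arm, the arm ratios were 50.3 and 28.7 for miR-128 and 14.7 and 15.3 for miR-219a. Both lay below the 67.1 and 104.9 of miR-24. miR-7a, at 83 and 66.7, was above miR-24 in replicate 1 only, while let-7a, miR-92a and miR-181a stayed above it in both. For miR-129 and miR-219a, named after their values were seen, the numbered arms together had more counts than the shared arm. In 10 of the other 14 pairs, a set likewise chosen later, 1 arm held more than 90%. The miR-24 pair had the most counts of all 16. Next by counts, miR-181a-1-3p had 2313 and 2119 counts against 1 and 3 for miR-181a-2-3p, and miR-125b-2-3p 1357 and 1554 against 32 and 26 for miR-125b-1-3p. In the let-7c pair let-7c-2-3p had 1378 and 1092 counts against 108 and 95, and let-7a-1-3p held the same 1378 and 1092 counts against 0 and 0 for let-7a-2-3p, so these names may share reads. An uneven split was thus common among such pairs. By share the split of miR-24 was near their median, but its order against some pairs depended on how a count of 0 was treated.

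**Figure D5:**
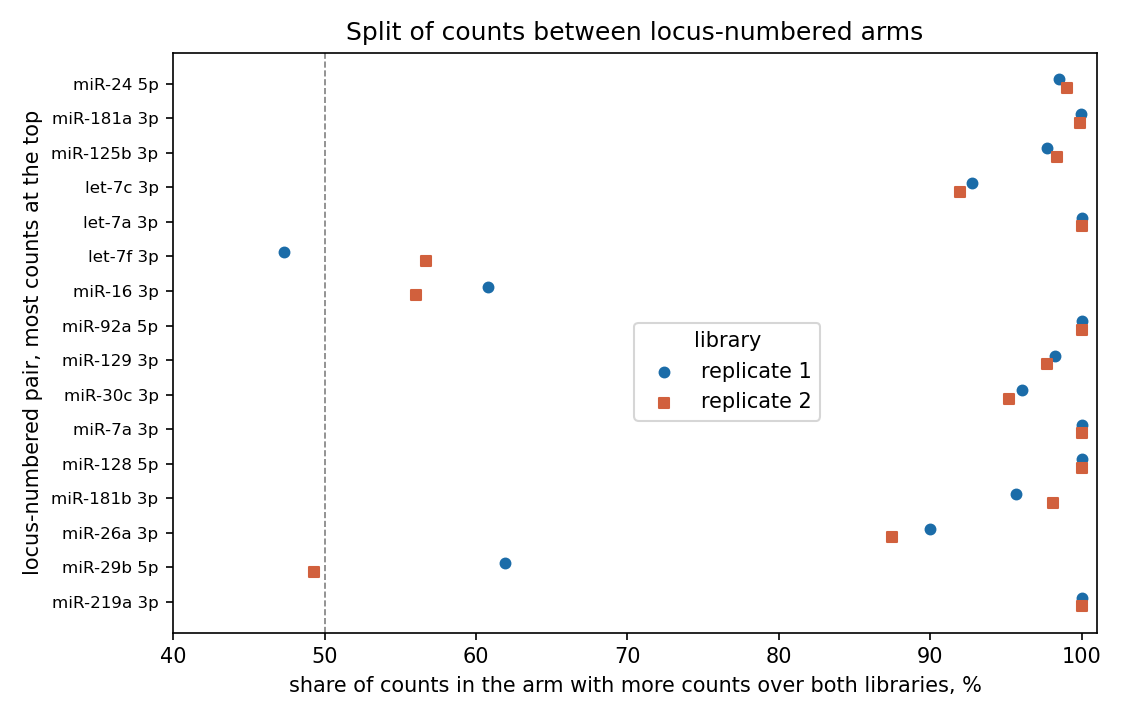
Percent of the counts of each locus-numbered pair that fell in the arm with more counts over both libraries, for the 16 pairs with at least 20 counts in each library, in replicates 1 and 2. The miR-24 5p pair, at 98.5% and 99.1%, lies among 12 pairs above 90%; the dashed line marks an even split.

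The passenger arms of the miR-17-92a cluster, another polycistron, had means of 1.39 to 66.4 RpM, while those of the miR-23/27/24 5p arms ran from 4.35 to 2109 RpM. miR-92a-1-5p had 537 and 349 counts, miR-17-3p 512 and 509, and miR-18a-3p 228 and 138. miR-20a-3p had 47 and 36 counts, miR-19a-5p 20 and 14, and miR-19b-1-5p 15 and 6. None of these 6 arms reached the level of miR-27a-5p or miR-27b-5p, and the most abundant by mean, miR-17-3p at 66.4 ± 4.97 RpM (SD, n = 2), stayed far below miR-24-2-5p. In replicate 1 miR-92a-1-5p was higher than miR-17-3p. Between the libraries 2 of the 6 were called, both lower in replicate 2, beside 44.2% of all names called and 30.4% called lower. Their median log2 ratio was -0.71 with library totals, against -0.16 for all names.

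Features of sequence that the choice of the 5p arms had not used were also compared. None of the 6 began with U or C, while 4 began with G and 2 with A. Both copies of each pair have the same first base, so these are 3 pairs of related arms and not 6 separate cases. Over 117 hairpins with both mature sequences matched, the more abundant arm began with U in 53.0% and with G in 5.98%, and the less abundant arm with U in 16.2%, G in 18.8%, A in 31.6% and C in 33.3%. The reference arms miR-27a-3p, miR-27b-3p and miR-24-3p began with U and miR-23a-3p with A. In this respect miR-24-2-5p, despite its level, did not differ from the rare arms. Both miR-24 5p arms have the same first base, seed and, in minimum free energy folds of their hairpins, the same pairing of the first 4 bases (2 G-C pairs, 1 A-U pair and 1 unpaired base). At the other end of the duplex the first 4 bases of miR-24-3p had 1 G-U pair and 1 unpaired base in Mir24-1, and 0 and 2 in Mir24-2. The predicted folds differed in energy, at -49.0 kcal/mol for Mir24-2 and -26.3 kcal/mol for Mir24-1, which have 107 and 68 annotated bases. The part of these features in the counts was not tested.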

How the data were processed

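Small RNA libraries of 2 samples of a single condition were analysed. Per mature miRNA name, the authors deposited a whole-number read count without normalization, made by trimming the reads and aligning them with Bowtie to the stem-loops of miRBase. The miRBase release and the rule for reads with several matches are not given in the sources used here, and they can move counts between copies. DESeq2 is named in the submitters' processing notes with no role. Adapter ligation and PCR favour some sequences, so a ratio of counts between different arms is not a ratio of molecules.

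From the counts, RpM (count per 1000000 of the library total, 7322969 and 8094314), copy ratios with exact binomial intervals, and 5p shares with Wilson intervals (95%) were computed in Python 3.11.15 with scipy 1.17.1. Libraries were compared by Fisher's exact test per name (at least 10 counts summed) and per hairpin (at least 100 counts in each library), with Benjamini-Hochberg adjustment at 0.05. The procedure was tried on simulated libraries drawn with counting error alone, which does not cover the spread between real replicates. TMM (edgeR 4.0.16) and DESeq2 1.42.0 in R 4.3.3 gave alternative scalings. The DESeq2 size factors came to 1 for both libraries, so this alternative left the counts unscaled. Other alternatives were pooled reads, geometric means, 0.5 added to counts, other count minimums, a 2-fold threshold, copies summed, and each library left out. Hairpins were folded with ViennaRNA 2.7.2. Mature sequences matched 1623 of 1915 names. Positions come from RefSeq and GENCODE vM21.

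The members and lists were chosen with earlier results of these data known. Named are the 6 arms, the 3p arms of their hairpins, the neighbours in rank of the most and least abundant arm, the 2 hairpins next above and below each own hairpin by minor arm share (where useful), the 5 locus-numbered pairs with most counts, the miR-17-92a passenger arms and the cell type markers.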

Additional observations from a re-analysis of the deposited data

How the results depend on the processing

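For the main results, other settings kept 69 values in direction, call or size within the spread, 12 moved, 1 passed a threshold that the main value did not, and 1 turned direction. Some of the 69 could hardly have changed, so their number is no measure of stability. Pooled levels and shares, and geometric means of both ratios, lie between the libraries and so within 1 SD of their mean. The total over names with at least 10 counts in each library, 7321184 and 8092556, was close to the full 7322969 and 8094314. With 1 library left out, 36 were kept, 2 passed a threshold and 2 turned; a single library of 2 lies within 1 SD of their mean by construction, so this is no sign of stability. For single names and hairpins, other settings kept 19, moved 10, lost 6 calls and turned 4, and leaving out a library kept 2 and moved 8. Unless stated, the causes were not tested. No paired analysis was possible because the series holds a single group.

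Leaving out each replicate gave 0.600 to 1.09 for miR-23b-5p over miR-23a-5p, and 0.844 to 1.53 for the 3p ratio of miR-23 divided by its 5p ratio. In both, replicate 1 alone passed the test and replicate 2 alone turned the direction. Pooled reads gave a miR-23 5p ratio of 0.717, past the threshold, since replicate 1 holds most of those counts.

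The ratio of the summed 5p arms, chromosome 13 over chromosome 8, was 0.0984. It was 0.0142 without the miR-27 arms, 0.248 as the geometric mean of the 3 copy ratios, and 1.54 without the miR-24 arms, which was chosen after seeing the data.

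With both copies summed, the 5p share of miR-27 was 0.381%, against 2.27% for miR-27a and 0.248% for miR-27b alone.

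Between the libraries, TMM scaling and the DESeq2 size factors, which were 1 for both libraries, left 3 of the 5p arms called lower in replicate 2 in place of 5. The log2 ratio turned to 0.12 and 0.14 for miR-27b-5p and to 0.083 and 0.098 for miR-24-2-5p, and miR-23b-5p, at -0.82 and -0.81 against -0.95, was no longer called (Fisher's exact test, adjusted p = 0.0596 and 0.0785; 0.0230 with library totals). Requiring at least 2-fold left 55 of 260 names, 1 of the 5p arms (lower in replicate 2), 4.57% of hairpins and 1 of the 5 miR-23/27/24 hairpins. Of all hairpins, 37.7% were called in the main setting, 29.8% with at least 20 counts over both arms and 52.3% with at least 1000. These other count minimums were counted as kept, although this percent has no spread. Without the arms under 100 counts, chosen after seeing the data, 3 arms were called, since fewer were counted. In the main setting 75% of locus-numbered pairs had over 90% of counts in 1 arm. The value was 83.3% with at least 100 counts (12 pairs) and 66.7% with at least 1 count in every library (24 pairs). Without let-7a and let-7c, or with only the pairs less abundant than their shared arm, both chosen after seeing the data, it was 71.4%.

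Under other count minimums, with 1 library or without hairpins that share counts with other names (chosen later), miR-24 had a higher minor arm share than 92.9% to 97.2% of other hairpins, and miR-27a than 44.6% to 55.7%. The miR-23 5p arms had 22 to 70 counts.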

Other observations

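Opposite the miR-24 hairpins, on the minus strand, the annotation places Mir3074-1 on chromosome 13 and Mir3074-2 on chromosome 8. Their shared arm, miR-3074-5p, had 37 and 42 counts in replicates 1 and 2, or 5.05 and 5.19 RpM. The locus-numbered arm of chromosome 13, miR-3074-1-3p, had 17 and 19 counts, and that of chromosome 8, miR-3074-2-3p, had 0 and 1. On the minus strand the locus with more counts was thus chromosome 13, while on the plus strand miR-24-2-5p of chromosome 8 had 15691 and 16790 counts against 234 and 160 for miR-24-1-5p. These antisense names were chosen after their values were seen, and the difference was not tested.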
